A study of Mus musculus with 4 samples.

Results

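The IGHV1 genes, the J558 family, are the largest group of heavy-chain variable (V) genes of the mouse. A member was counted when the heavy-chain contig with most unique molecular identifiers (UMIs) of a cell barcode carried a V gene whose name starts with IGHV1. This gave 50 of the 99 heavy-chain V genes seen. They were read in 2419 of 6041 heavy-chain barcodes of the wild-type (WT) library and in 5722 of 13190 of the knockout (KO) library. A clone was defined as all barcodes of a library with the same V gene, J gene and CDR3 nucleotide sequence. By that rule IGHV1 genes were carried by 2174 of 4612 WT clones and by 3852 of 7899 KO clones.

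The cells were CD45-positive leukocytes sorted from the peritoneal lavage fluid of mice. WT and KO mice alike were kept on high-fat diet (HFD), started at 4 weeks of age and lasting 3 months. Which gene the KO mice lacked is not reported here. Each genotype gave 1 expression library and 1 B-cell receptor (BCR) library, made from 10x Genomics droplets. The number of mice behind a library, their strain and whether they were pooled are not given in the sources used here. With 1 library per genotype no difference between WT and KO has a replicate check, and no p-value is given. All intervals are 95% intervals and cover counting error only. The share that a count of 0 allows is given as 3 counts of the total, which is not the upper bound of such an interval. Barcodes of a clone can also descend from 1 recombination event and are then not independent, so that intervals over barcodes are too narrow. The clone rule leaves out the light chain, and an equal heavy-chain sequence alone does not show common descent.

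An antibody heavy chain is assembled by joining a V, a D and a J segment, and the joint encodes the CDR3, the most variable loop of the binding site. Untemplated bases (N bases) are added at both joints by terminal transferase, an enzyme that is little active before birth. The peritoneal cavity holds B-1 cells, many of them of fetal origin, with few N bases and repeated receptors, beside B-2 cells, the conventional B cells of spleen and lymph node. IGHV11-2 and IGHV12-3 are V genes known for their dominance in B-1 cells, and they are kept apart here from the remaining V genes, called the other V genes. Fcer2a encodes CD23, an IgE receptor of B-2 cells, and Zbtb32 encodes a transcription repressor found in B-1 cells.

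The CDR3 sequences below carry the largest and the shared IGHV1 clones. They run from the codon of the conserved cysteine to that of the tryptophan, 5′ to 3′. Bases matching the germline V and then the germline J segment were set aside first. Capitals mark the longest exact match of at least 5 bases to a germline D segment in what was left. A D match can therefore run on into bases in small letters. The first set shows IGHV1-55 clones with the D segment Ighd1-1, nearly all of whose barcodes used the light-chain V gene IGKV12-89 and which include the largest clone of each library.
IGHV1-55 with IGHJ1, 29 WT barcodes: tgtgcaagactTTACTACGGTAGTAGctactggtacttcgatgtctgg
IGHV1-55 with IGHJ1, 32 KO barcodes: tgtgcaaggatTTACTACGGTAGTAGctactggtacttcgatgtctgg
IGHV1-55 with IGHJ1, 6 WT and 3 KO barcodes: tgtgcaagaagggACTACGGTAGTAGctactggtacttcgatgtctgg
IGHV1-55 with IGHJ2, 12 KO barcodes: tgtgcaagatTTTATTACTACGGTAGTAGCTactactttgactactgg
IGHV1-55 with IGHJ4, 1 WT and 4 KO barcodes: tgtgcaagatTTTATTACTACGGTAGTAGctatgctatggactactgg

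The second set shows short junctions in which no D match of 5 bases was found, so that no capitals appear. The first 4 are IGHV1-47 clones of equal length, and the last is the shortest of the large clones.
IGHV1-47 with IGHJ3, 10 WT and 19 KO barcodes: tgtgcaaggggggggtttgcttactgg
IGHV1-47 with IGHJ3, 1 WT and 8 KO barcodes: tgtgcaagaggggggtttgcttactgg
IGHV1-47 with IGHJ3, 2 WT and 5 KO barcodes: tgtgcaaggggagggtttgcttactgg
IGHV1-47 with IGHJ3, 4 KO barcodes: tgtgcaagggggggatttgcttactgg
IGHV1-72 with IGHJ2, 8 WT and 5 KO barcodes: tgtgcaagatgggactactgg

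The third set gives the remaining large or shared clones named in the text.
IGHV1-53 with IGHJ2, 5 WT and 10 KO barcodes: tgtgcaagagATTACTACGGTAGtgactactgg
IGHV1-39 with IGHJ4, 3 WT and 8 KO barcodes: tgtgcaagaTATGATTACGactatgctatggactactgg
IGHV1-11 with IGHJ2, 10 WT barcodes: tgtggaagTGGTAactactttgactactgg
IGHV1-12 with IGHJ4, 7 WT barcodes and 1 KO barcode: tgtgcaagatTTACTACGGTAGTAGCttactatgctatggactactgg
IGHV1-52 with IGHJ1, 7 WT barcodes: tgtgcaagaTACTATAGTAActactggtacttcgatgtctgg
IGHV1-81 with IGHJ2, 9 KO barcodes: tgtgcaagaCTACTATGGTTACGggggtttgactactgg

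The BCR files held 13688 contigs in WT and 30763 in KO, and the chosen IGHV1 heavy contig rested on 20 UMIs (median) in the WT library and on 14 in the KO library, where contigs of all V genes but IGHV1 had 42 and 25. The expression libraries held 10087 WT and 22516 KO barcodes with medians of 6362 and 3298 UMIs. The libraries shared 293 expression barcodes and 107 heavy-chain barcodes. No shared heavy-chain barcode carried the same clone in both. Of the IGHV1 barcodes, 2352 in WT and 5583 in KO had an expression profile that passed the filters. In 97.2% of these in WT (96.4 to 97.8) and 91.8% in KO (91.0 to 92.5), the Ighv gene with most UMIs in the expression library was the V gene of the contig. T-like barcodes, which had 3 or more UMIs of the CD3 genes and no contig, held an Ighv1 UMI in 9.72% of cases in WT and 20.3% in KO, so that this background was higher in the KO library. In KO, clones of exactly 2 barcodes held 45.7% of the IGHV1 barcodes, against 6.95% in WT. Whether the barcodes of such a pair are 2 cells of a clone or 1 cell under 2 barcodes cannot be told apart here, so KO counts of barcodes and KO clone sizes may count a cell more than once.

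The IGHV1 family made up close to equal parts of the WT and KO repertoires once clones were counted. Its share of heavy-chain clones was 47.1% in WT (45.7 to 48.6) and 48.8% in KO (47.7 to 49.9), a KO to WT ratio of 1.03 whose interval, 0.996 to 1.07, includes 1. Its share of barcodes was 40.0% in WT (38.8 to 41.3) and 43.4% in KO (42.5 to 44.2), a ratio of 1.08 (1.04 to 1.12). Barcodes with IGHV11-2 or IGHV12-3 went from 18.4% in WT to 10.5% in KO, and those with the other V genes from 41.5% to 46.2%. With IGHV11-2 and IGHV12-3 left out, IGHV1 held 49.1% of WT barcodes and 48.4% of KO barcodes, and the ratio turned to 0.987 (0.954 to 1.02).

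Within the family the same genes were used in both libraries. IGHV1-26 was the most used, with 4.49% of all WT clones (3.91 to 5.13) and 4.94% of all KO clones (4.47 to 5.44). IGHV1-53 followed with 3.06% in WT and 2.95% in KO, and IGHV1-55 with 2.95% and 2.63%. IGHV1-64, IGHV1-82, IGHV1-72, IGHV1-18, IGHV1-19, IGHV1-9, IGHV1-22, IGHV1-69 and IGHV1-39 completed the 12 most used genes, each between 1.39% and 2.56% of the clones of a library. These 12 genes held 58.6% of the IGHV1 clones in WT and 57.5% in KO. The intervals of neighbours in this order overlap from IGHV1-53 downward, so that only IGHV1-26 stands apart. Of the 50 members, 48 were seen in both libraries and 2, IGHV1-37 and IGHV1-23, were seen in KO alone, with 6 and 3 clones. These 2 are named because of that count, after their values were seen.

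For 38 members at least 20 clones were found in a library, and 12 members fell below that level. Reaching it in either library was enough. The KO library held more clones, so rare members could enter through KO alone, which favours ratios above 1 among them. The part of this rule in the calls was not tested. Among the 38, 3 had a KO to WT ratio of clone shares above 1.5 and none had a ratio under its inverse, while 9.21% of the 76 V genes of all families at that level were past 1.5-fold, 6.58% upward and 2.63% downward. The 3 were IGHV1-42 with a ratio of 1.65 (0.949 to 2.86), IGHV1-12 with 1.57 (0.927 to 2.65) and IGHV1-5 with 1.57 (0.961 to 2.55). Counted by barcodes in place of clones, 5 members were past 1.5-fold, and IGHV1-12 was not one of them, with 1.32. IGHV1-20 came next with 1.49 (0.691 to 3.22). The lowest ratios belonged to IGHV1-61 with 0.791 (0.498 to 1.26), IGHV1-19 with 0.821, IGHV1-85 with 0.846 and IGHV1-69 with 0.857. The interval included 1 for each of the 38, so no member differed between the libraries beyond counting error. The median ratio was 1.08 over the 38 members and 1.05 over the 76 genes. Across the 38 genes the log2 clone shares of WT and KO correlated with a Pearson r of 0.973, a description of genes within 2 libraries.

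**Figure D1:**
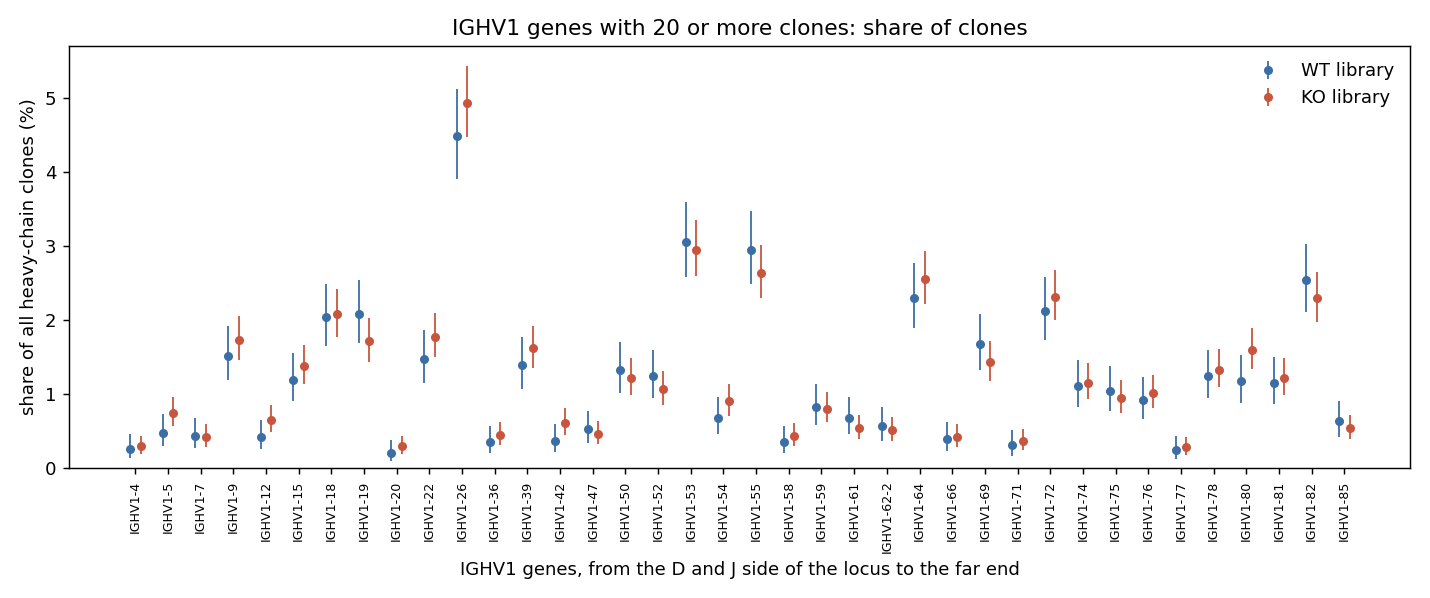
Share of all heavy-chain clones (%) carried by each of the 38 IGHV1 genes with 20 or more clones in a library, in the order of the genes along the locus. Points are the WT (blue) and KO (red) libraries and bars are exact 95% binomial intervals. IGHV1-26 is highest in both libraries at 4.49% and 4.94%, and the intervals of the libraries overlap for the genes drawn.

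In the GENCODE M21 annotation of GRCm38, the V genes lie on chromosome 12, and the annotation lists 92 Ighv1 genes among 183 Ighv genes, 53 of them typed as V genes rather than pseudogenes. Counted from the D and J side, the first Ighv1 gene is at place 65 of the 183, so the family lies away from these segments. The members were cut by this order into groups of near-equal number. The 17 members nearest to the D and J segments, from IGHV1-2 to IGHV1-36, held 33.4% of the IGHV1 clones in WT and 35.0% in KO. The next 17 held 29.8% and 28.5%. The 16 members farthest away, from IGHV1-63 to IGHV1-85, held 36.8% and 36.5%. The V regions compared over 285 bases shared between 72.3% and 100% of their bases, with a median of 84.9% over 1176 pairs. IGHV1-71 and IGHV1-62-2 were identical there, and IGHV1-72 and IGHV1-62-3 shared 99.3%, so the counts of these pairs are uncertain.

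The most common V region of a member was the annotated sequence for 49 of 50 genes. The exception was IGHV1-69, in which 215 of 258 barcodes carried the change T202G against the annotation, with positions counted from 1 at the first base of framework 1. A further 36 IGHV1-69 barcodes equalled the annotation. IGHV1-2 is the 1 member that GENCODE types as a pseudogene, and its germline sequence from the cysteine on reads tgtgcaTGA, where capitals mark a stop codon. It was found in 11 clones and 15 barcodes, and in none of the clones was that stop codon kept. Every deposited contig was marked productive, so that this absence was fixed in advance. Each of the 15 barcodes also had a light chain. Its largest clone, with 4 WT barcodes, and another with 1 WT barcode read as follows.
IGHV1-2 with IGHJ4, 4 WT barcodes: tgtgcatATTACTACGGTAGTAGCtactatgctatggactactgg
IGHV1-2 with IGHJ4, 1 WT barcode: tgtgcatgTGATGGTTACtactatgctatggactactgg

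Clone sizes differed strongly between the libraries. In WT, 15.4% of IGHV1 barcodes (13.96 to 16.9) were in clones of 2 or more barcodes, and in KO 59.3% (58.0 to 60.5). Most of the difference lay in clones of exactly 2 barcodes, which held 6.95% of the IGHV1 barcodes in WT and 45.7% in KO. Clones of 3 held 2.604% and 8.97%. Clones of 4 or more held 5.83% in WT (4.93 to 6.84) and 4.61% in KO (4.08 to 5.19). As a share of clones, those of 4 or more were 22 of 2174 in WT, or 1.01% (0.635 to 1.53), and 43 of 3852 in KO, or 1.12% (0.809 to 1.501). The other V genes moved in the same way for clones of exactly 2, from 9.57% to 44.4%. For IGHV11-2 with IGHV12-3 the share of barcodes in such clones did not rise, with 9.16% and 8.56%. As a share of the clones of these 2 genes, however, clones of 2 went from 20.7% in WT to 29.2% in KO. Their clones of 1 went from 49.6% to 30.2%.

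The 1307 IGHV1 clones of exactly 2 barcodes in KO were described further. Of the 1288 in which both barcodes had a light chain, 95.8% shared the light-chain CDR3 (94.6 to 96.8), against 84.3% of 83 such clones in WT (74.7 to 91.4). Both barcodes had an expression profile in 1284 KO pairs, and their log2 UMI totals correlated with a Pearson r of 0.858, against 0.753 over 76 pairs in WT. The summed UMIs of a pair had a median of 5362 in KO and 14780 in WT, while IGHV1 barcodes of all clone sizes had medians of 3055 in KO and 5606 in WT. No pair had barcodes 1 base apart. Among pairs with an Fcer2a UMI in at least 1 barcode, 196 had it in both and 348 in 1 in KO, and 7 and 16 in WT. A barcode whose partner held Fcer2a held it in 53.0% of cases in KO and 46.7% in WT. For Zbtb32 the order was the other way, with 49.3% in KO and 68.4% in WT. Over all barcodes of these pairs, unthinned, Fcer2a was found in 28.8% in KO and 19.7% in WT. Zbtb32 was found in 19.9% and 50%. Both orders are thus also those of the shares over all barcodes, and sharing within pairs beyond these shares was not tested. The UMI depths above moved with the KO pairs, and their part in the result was not tested. Counting clones takes each such pair once.

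**Figure D2:**
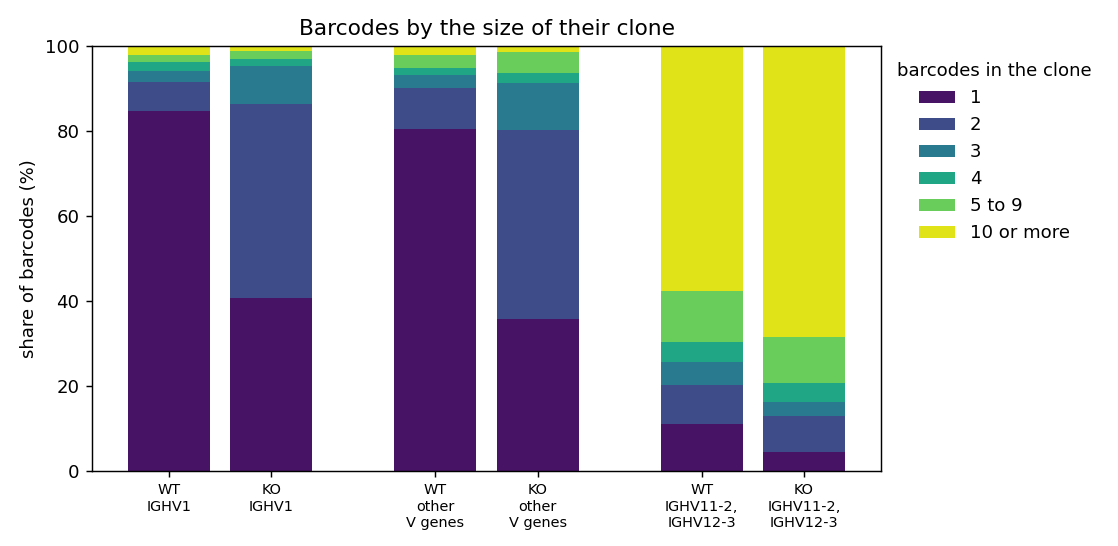
Share of barcodes (%) by the number of barcodes in their clone, for IGHV1, for the other V genes and for IGHV11-2 with IGHV12-3, in WT and KO. Clones of 2 hold 6.95% of the IGHV1 barcodes in WT and 45.7% in KO, and clones of 10 or more hold 2.03% and 1.28%.

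The IGHV1 clones printed above were IgM clones, and in all but 1 of them the V regions equalled the reference, the most common contig sequence of the gene. Of the 68 IGHV1 clones with 4 or more barcodes over both libraries, 64 had IGHM in every barcode. The largest clone of each library was an IGHV1-55 clone with IGHJ1, with 29 barcodes or 1.20% of the IGHV1 barcodes in WT and 32 barcodes or 0.559% in KO. These clones have different CDR3 sequences of the same length, as printed above, and both paired with IGKV12-89 in every barcode. The IGHV1-47 clone with IGHJ3 was the largest that was found in both libraries, with 10 WT and 19 KO barcodes, and it paired with IGKV1-110 in each of the 28 barcodes that had a light chain. The other named clones of both libraries were IGHV1-53 with IGHJ2, IGHV1-72 with IGHJ2, IGHV1-39 with IGHJ4, a second IGHV1-47 clone with 1 WT and 8 KO barcodes, and the IGHV1-55 clone with 6 and 3. IGHV1-11 with IGKV17-127 and IGHV1-52 with IGKV1-117 were found in WT alone, and IGHV1-81 with IGKV8-30 in KO alone. IGHV1-12 with IGLV2 had 7 WT barcodes and 1 KO barcode. At these clone sizes, presence in 1 library is not shown to be a difference between genotypes.

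Clones found in both libraries had short junctions with few N bases. There were 48 such IGHV1 clones, 2.21% of the WT and 1.25% of the KO clones, against 3.38% and 1.92% for the other V genes and 27.2% and 33.2% for IGHV11-2 with IGHV12-3. Of the 39 with a D match, 56.4% had no base between the V, D and J matches. Of the IGHV1 clones of KO alone with a D match, 7.06% had none. The shared clones had a median CDR3 length of 36 bases, against 39 in clones of KO alone. In 21 of the 48 a light-chain CDR3 was also shared between the libraries.

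The IGHV1 junctions as a whole had the same length in both libraries. The median CDR3 length over clones was 39 bases in WT, with quartiles of 36 and 45, and 39 bases in KO, with quartiles of 33 and 45. The other V genes had the same median, and IGHV11-2 with IGHV12-3 had 42 bases. N bases were counted in clones with a D match of at least 5 bases. In IGHV1 these were 1875 of 2174 clones in WT and 3311 of 3852 in KO. The median number of N bases was 6 per IGHV1 junction in each library, 5 in the other V genes and 2 in IGHV11-2 with IGHV12-3. Of the IGHV1 clones with a D match, 8.64% in WT (7.41 to 10.0) and 7.64% in KO (6.76 to 8.599) had no base between the matches. In the other V genes these shares were 14.1% and 11.8%. IGHJ2 was the most used J gene, in 39.6% and 39.9% of IGHV1 clones, and IGHJ1 was carried by 17.6% in WT and 14.8% in KO, a ratio of 0.842 (0.748 to 0.948). Ighd1-1 gave the longest D match in 35.8% and 34.2% of the IGHV1 clones with a D match.

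Nearly all IGHV1 contigs were IgM. IGHM was the constant gene of 94.5% of the IGHV1 barcodes in WT and 92.8% in KO. IGHD, the constant gene of IgD of naive B-2 cells, was named in 4.26% in WT (3.49 to 5.14) and 5.91% in KO (5.31 to 6.55) in IGHV1, and in 1.55% and 2.58% in the other V genes. Contigs with fewer than 3 UMIs were 3.41% of the IGHV1 contigs in KO and 0.951% in WT, and without them the KO value of IGHD was 5.03%. Switched constant genes, those of IgG and IgA, were found in 1.16% in WT and 1.07% in KO. The V region equalled the reference in 96.6% of IGHM contigs in WT and 95.3% in KO, in 99.0% and 98.5% of IGHD contigs and in 42.9% and 42.6% of switched contigs. Switched IGHV1 contigs were few, with 28 in WT and 61 in KO, and their V regions differed from the reference by a median of 2 bases in WT and 1 base in KO.

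The IGHV1-53 clone with IGHJ2 and IGLV1 was an exception among the large clones. Its 15 barcodes, 5 in WT and 10 in KO, were all IGHM, yet only 2 of the 15 had a V region equal to the reference. They carried 10 different V sequences, none of which occurred in both libraries, with a median of 4 and up to 11 differences from the reference. Their light chains had 5 different CDR3 sequences, so that descent of all 15 from 1 cell is not shown. Of the 68 IGHV1 clones with 4 or more barcodes, 60 had the reference V region in every barcode and 7 had a median of 1 or more differences.

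Light chains of IGHV1 clones were mostly kappa. Lambda chains were found in 10.5% of WT clones (9.23 to 11.9) and 9.78% of KO clones (8.86 to 10.8), a ratio of 0.932 (0.797 to 1.09), and in 15.9% and 15.1% in the other V genes. The most frequent partners were IGLV1 with 5.91% of IGHV1 clones in WT and 5.86% in KO, IGKV1-117 with 5.73% and 5.44%, IGKV1-110 with 5.68% and 5.44%, and IGKV10-96 with 5.82% and 4.44%. IGKV1-135, IGLV2, IGKV6-15 and IGKV9-120 followed. IGKV1-135 stood at 3.05% in WT (2.37 to 3.86) and 4.55% in KO (3.91 to 5.26).

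Single IGHV1 genes had partners of their own. IGHV1-55 paired with IGKV12-89 in 8.57% of its distinct heavy and light combinations in WT and 10.0% in KO. In the rest of the family this light chain made up 0.438% and 0.353%. Of the 11 WT clones with this pair, 9 had a CDR3 of 48 bases and 10 matched Ighd1-1, and of the 21 KO clones 19 did in each respect. Among the IGHV1-55 clones with other light chains, 10 of 125 in WT and 21 of 186 in KO had a CDR3 of 48 bases. IGHV1-47 paired with IGKV1-110 in 30.8% and 34.1%, and 6 of 6 WT and 8 of 9 KO clones of that pair had 27 bases, against 0 of 18 and 1 of 27 of its other clones. IGHV1-19 was the member with most lambda chains, in 37.5% of its WT and 34.8% of its KO clones, and IGLV1 made up 24.7% and 23.5% of its combinations. IGHV1-78 paired with IGLV2 in 22.4% and 14.02%, and IGHV1-39 with IGKV15-103 in 24.2% and 6.25%, from 16 and 8 combinations. These pairs were picked out after the values had been seen.

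IGHV1 barcodes carried Fcer2a more often, and Zbtb32 less often, than barcodes of the other V genes in both libraries. After each barcode was thinned to 2000 UMIs, an Fcer2a UMI was found in 25.2% of IGHV1 barcodes in WT (23.4 to 27.04) and 20.7% in KO (19.4 to 21.9). The other V genes had 17.5% and 14.3%, and IGHV11-2 with IGHV12-3 had 1.58% and 1.36%. The ratio of IGHV1 to the other V genes was 1.44 in WT (1.29 to 1.61) and 1.45 in KO (1.32 to 1.59). T-like barcodes gave a background of 1.17% in WT and 3.34% in KO at median depths of 4992 and 3806 UMIs, with 5778 and 3741 for IGHV1. The thinning left out 78 IGHV1 barcodes in WT and 1442 in KO. Unthinned, the IGHV1 shares were 39.4% and 30.6% beside a T-like background of 4.79% and 8.28%, and with 1 barcode per clone the thinned KO share was 22.7%.

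The KO to WT difference in Fcer2a within IGHV1 did not keep its direction. It was a ratio of 0.820 (0.748 to 0.89995) at 2000 UMIs and 1.03 (0.916 to 1.15) at 1000 UMIs, where the shares were 15.2% and 15.6% and 154 KO barcodes were left out. Zbtb32 was found in 16.3% of IGHV1 barcodes in WT (14.8 to 17.9) and 14.9% in KO (13.9 to 16.05), with a T-like background of 4.11% and 6.38%. The other V genes had 18.7% and 17.7%, and IGHV11-2 with IGHV12-3 had 31.6% and 29.9%. The ratio of IGHV1 to the other V genes was 0.871 in WT (0.768 to 0.987) and 0.844 in KO (0.767 to 0.929). Unthinned, the IGHV1 shares of Zbtb32 were 35.9% and 21.5%, beside 11.6% and 14.9% in T-like barcodes. Both genes were found together in 0.923% of IGHV1 barcodes in WT and 0.918% in KO. Fcer2a alone was found in 24.3% and 19.8%, and Zbtb32 alone in 15.3% and 14.01%.

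The classes with Fcer2a alone and with Zbtb32 alone differed in their junctions. Neither gene was found in 59.5% of the thinned IGHV1 barcodes in WT and 65.3% in KO, which belong to neither class. IGHV1 clones with Fcer2a alone had a median CDR3 of 42 bases and 7 N bases in both libraries, and those with Zbtb32 alone had 39 bases, with 4 N bases in WT and 5 in KO. N bases were counted in clones with a D match, 497 of 550 Fcer2a clones in WT and 650 of 753 in KO. Among Zbtb32 clones these were 256 of 308 and 414 of 495. Of the Fcer2a clones with a D match, 1.41% in WT (0.568 to 2.88) and 3.85% in KO (2.50 to 5.63) had no base between the V, D and J matches. Among Zbtb32 clones these values were 21.5% (16.6 to 27.03) and 15.7% (12.3 to 19.6). Clones with neither gene had 10.0% and 9.82%. Lambda chains were found in 5.45% and 7.04% of Fcer2a clones and 15.6% and 17.8% of Zbtb32 clones. IGHD was named in 8.33% and 8.07% of Fcer2a barcodes. Among Zbtb32 barcodes it was named in 0 of 349 in WT, which allows a share of up to 0.860%, and in 2 of 580 in KO. Clones found in both libraries were 0.727% and 0.398% of the Fcer2a clones and 4.55% and 4.44% of the Zbtb32 clones. Fcer2a barcodes had fewer UMIs, with a median of 3862 in the WT library and 3099 in the KO library, where Zbtb32 barcodes had 8232 and 4597, and the part of depth in these contrasts was not tested.

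**Figure D3:**
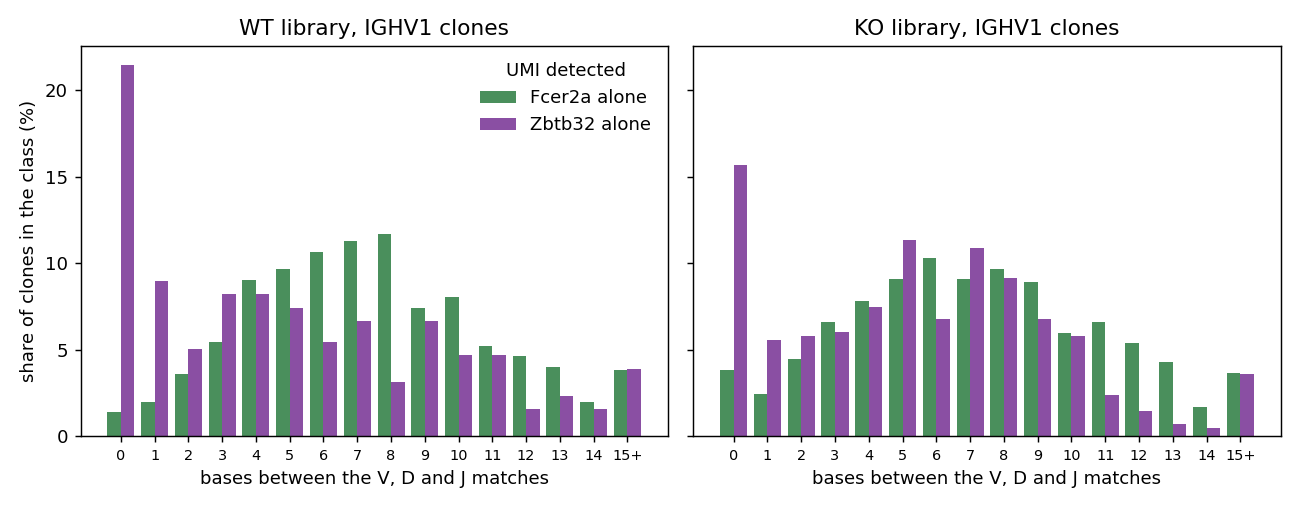
Share of clones with a D match (%) by the number of bases between the V, D and J matches. IGHV1 clones with Fcer2a alone are green and those with Zbtb32 alone purple, in WT (left) and KO (right). Junctions with 0 such bases are 1.41% and 3.85% of these Fcer2a clones and 21.5% and 15.7% of these Zbtb32 clones.

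The larger an IGHV1 clone, the fewer of its barcodes carried Fcer2a and the more carried Zbtb32. In WT, Fcer2a was found in 27.5% of barcodes of clones of 1 (25.6 to 29.6), 11.4% of clones of 2 and 8.51% of clones of 3. In clones of 4 or more it was found in 0 of 129 barcodes, which allows a share of up to 2.33%. In KO the values were 25.6% (23.7 to 27.6), 17.6%, 11.7% and 3.27% (1.33 to 6.62), the last at the level of the T-like background. Zbtb32 went from 13.5% in clones of 1 to 40.3% in clones of 4 or more in WT and from 10.7% to 29.4% in KO. Median expression depth in WT rose from 5319 UMIs in clones of 1 to 7980 in clones of 3 and 8232 in clones of 4 or more. In KO it was 3840 UMIs in clones of 1, 2619 in clones of 2, 2097 in clones of 3 and 3593 in clones of 4 or more, so that from 1 to 3 barcodes it went down together with the Fcer2a share. Thinning left out 865 KO barcodes in clones of 2 and 241 in clones of 3, and the part of depth in these shares was not tested. Of the largest WT clone, IGHV1-55 with IGHJ1, 27 barcodes had an expression profile, and unthinned 0 held Fcer2a and 23 held Zbtb32. These 0 of 27 allow a share of up to 11.1%. For the largest KO clone the numbers were 0 and 20 of 32. In the IGHV1-47 clone with IGHJ3, Fcer2a was found in 0 of 10 barcodes in WT and 0 of 18 in KO, and Zbtb32 in 6 and 11.

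**Figure D4:**
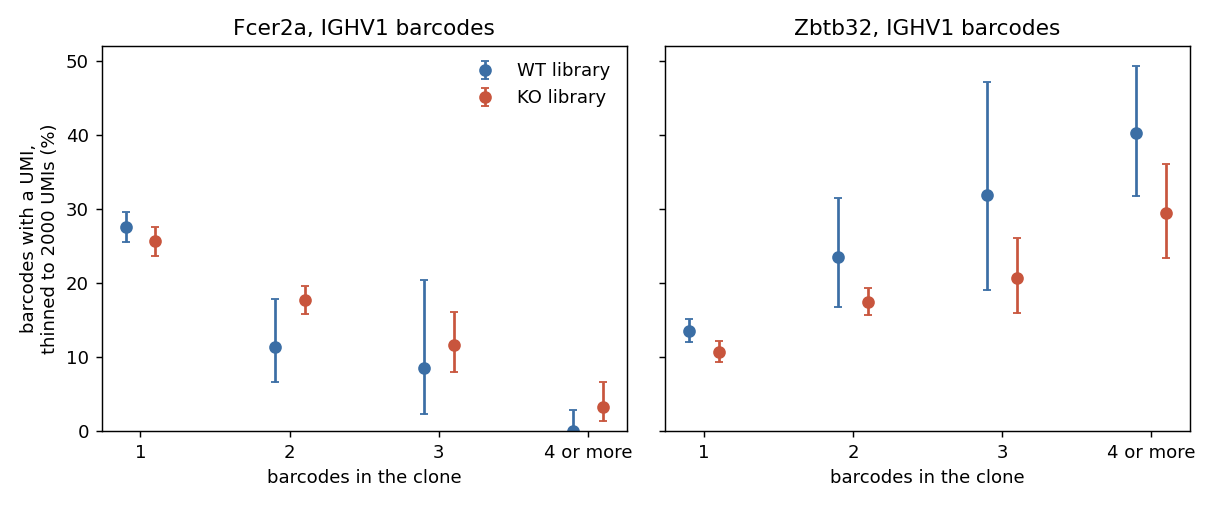
Share of IGHV1 barcodes (%) with an Fcer2a UMI (left) and a Zbtb32 UMI (right) after thinning to 2000 UMIs, by the number of barcodes in the clone, with exact 95% intervals, in WT (blue) and KO (red). For the 0 of 129 WT barcodes the interval reaches 2.82%. Fcer2a goes from 27.5% and 25.6% in clones of 1 to 0% and 3.27% in clones of 4 or more, and Zbtb32 from 13.5% and 10.7% to 40.3% and 29.4%.

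The share with Fcer2a also differed between members. Over the 25 IGHV1 genes with 30 or more thinned barcodes in each library, it ran from 12.7% to 44.8% in WT, with a median of 25%, and from 8.22% to 31.8% in KO, with a median of 20.8%. IGHV1-55 was low in both libraries, with 13.8% in WT (9.04 to 19.8) and 10.6% in KO (7.23 to 14.9), and so was IGHV1-53, with 12.7% and 14.1%. IGHV1-47 had 20.6% and 8.22%. IGHV1-26 was high in both, with 34.5% in WT (27.9 to 41.5) and 26.4% in KO (22.1 to 31.1), as was IGHV1-15 with 44.8% and 30.6%. IGHV1-18 had 31.8% in KO (24.8 to 39.3) and 28.9% in WT, where its interval, 20.1 to 39.0, includes the median. IGHV1-15 and IGHV1-47 were picked out after the values had been seen. The intervals of IGHV1-55 and IGHV1-26 do not overlap in either library, but they take barcodes of a clone as independent. Clones of 4 or more held 23.1% of the IGHV1-55 barcodes in WT and 17.2% in KO. For IGHV1-26 these values were 0% and 1.64%. The part of such clones in the contrast was not tested. Across the 25 genes the WT and KO shares correlated with a Pearson r of 0.595, and the Fcer2a and Zbtb32 shares with -0.477 in WT and -0.691 in KO, given as descriptions over genes of shared libraries.

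UMIs summed over barcodes and scaled to the sum of all genes (CPM) were compared between IGHV1 barcodes and barcodes of all other V families inside each library, with immunoglobulin genes left out. At 10 CPM or more, 57 of 7456 genes were past 1.5-fold higher in IGHV1 in WT (0.764%) and 51 lower (0.684%), and in KO 22 of 7517 were higher (0.293%) and 41 lower (0.545%). In both libraries 13 genes were higher and 21 lower. Fcer2a was higher in both, with 139 CPM in IGHV1 against 60.2 CPM in WT, a ratio of 2.31 (2.16 to 2.46). In KO it had 142 CPM against 74.2, or 1.92-fold (1.81 to 2.03). The contrast narrowed when IGHV11-2 and IGHV12-3 were left out of the other families. Then 10 genes were higher and 2 lower in WT, and 9 and 3 in KO, and the Fcer2a ratios were 1.54 and 1.49. With 1 barcode per clone, 15 genes were higher and 20 lower in WT and 9 and 11 in KO, and over barcodes with exactly 1 heavy contig 88 genes were higher in WT. At 50 CPM or more, 14 were higher and 13 lower in WT and 6 and 4 in KO.

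The B-2 list leaned toward IGHV1. Of its 12 genes 11 were tested, which here means at 10 CPM or more in a sum and not an immunoglobulin gene, and 4 were past 1.5-fold higher in WT (Fcer2a, Vpreb3, Cr2 and Fcrl1) and 2 in KO (Fcer2a and Vpreb3), with none lower. Of these calls Fcer2a in WT was the 1 that held without IGHV11-2 and IGHV12-3, where Vpreb3 had 1.47 and 1.35, Cr2 1.35 in WT and Fcrl1 1.28 in WT. With 1 barcode per clone 3 were past 1.5-fold in WT and 1 in KO. Ighd, the constant gene of IgD, was left out as an immunoglobulin gene, with 105 against 55.3 CPM in WT and 121 against 79.6 CPM in KO. The median log2 ratio of the list was 0.44 in WT and 0.28 in KO, beside 0.05 and 0.03 over all tested genes, and without IGHV11-2 and IGHV12-3 it was 0.19 and 0.12. Vpreb3, a chaperone of immature receptor chains, had 49.5 against 21.7 CPM in WT and 60.8 against 34.9 CPM in KO. Cr2, the complement receptor CD21, had a ratio of 1.99 in WT (1.75 to 2.25) and 1.49 in KO (1.35 to 1.65). Ccr7, the receptor for lymph node homing, had 1.42 and 1.43. Klf2 stood at 0.985 and 0.937, so that not every gene of the list leaned the same way.

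The B-1 list leaned the other way. All 12 of its genes were tested, 2 were past 1.5-fold lower in IGHV1 in each library, and none was higher. In WT these were Cd9, a tetraspanin, with a ratio of 0.613 (0.574 to 0.654), and Ctla4, an inhibitory receptor, with 0.665. In KO they were Ctla4 with 0.664 and Bhlhe41, a transcription factor needed by B-1a cells, with 0.665. None of these calls held without IGHV11-2 and IGHV12-3, where Cd9 had 0.929 in WT and 1.01 in KO, Ctla4 0.902 and 0.856, and Bhlhe41 0.877 in KO, nor did any with 1 barcode per clone. Zbtb32 had 127 against 162 CPM in WT, a ratio of 0.783 (0.742 to 0.826). In KO it had 96.9 against 132 CPM, or 0.732 (0.694 to 0.773). The median log2 ratio was -0.28 in WT and -0.41 in KO, and -0.08 and -0.15 without IGHV11-2 and IGHV12-3. Rbms1 was the 1 gene of the list on the IGHV1 side, with 1.001 and 1.09, and without IGHV11-2 and IGHV12-3 it had 0.954 and 1.01.

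**Figure D5:**
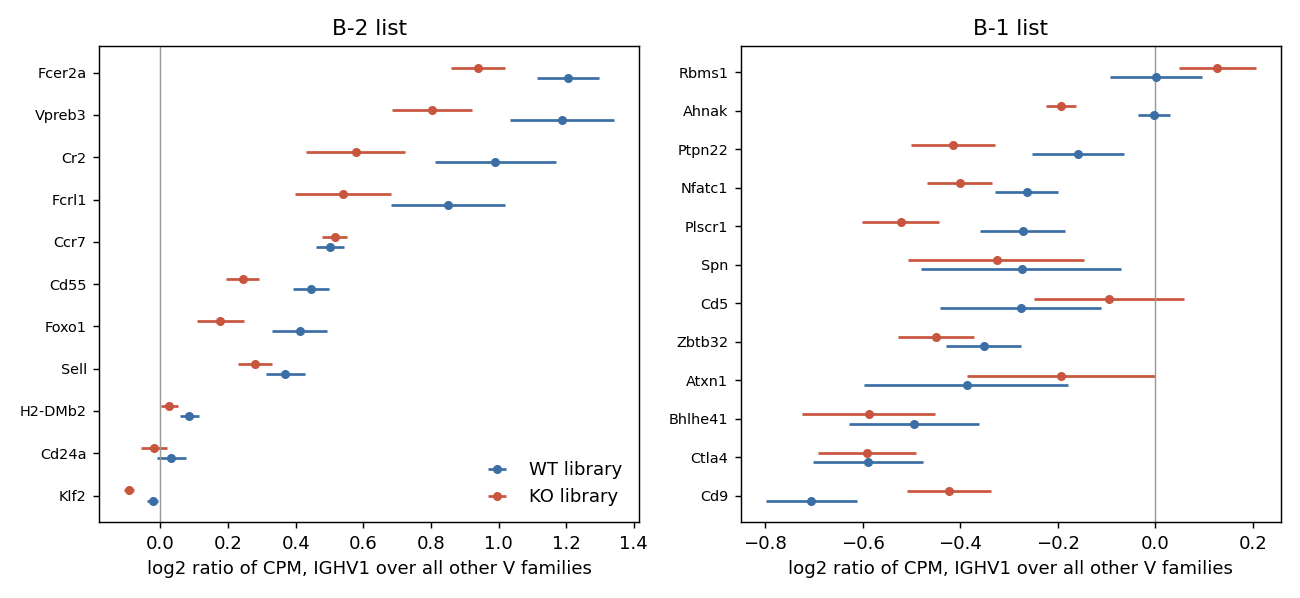
Log2 ratio of CPM in IGHV1 barcodes over barcodes of all other V families, for the tested genes of the B-2 list (left) and the B-1 list (right), in WT (blue) and KO (red), with exact conditional 95% intervals of the counts. Fcer2a lies at the top of the B-2 list, with ratios of 2.31 and 1.92, and Cd9 at the bottom of the B-1 list, with 0.613 and 0.745.

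Components of the B-cell receptor differed little. All 25 genes of that list were tested, and 2, Cr2 and Cd72, were past 1.5-fold higher in IGHV1 in WT and none in KO, with medians of 0.11 and -0.00404 on the log2 scale. Without IGHV11-2 and IGHV12-3 neither was, with 1.35 for Cr2 and 1.28 for Cd72 in WT. Cd72, an inhibitory coreceptor, had a ratio of 1.63 in WT and 1.46 in KO, and Fcrl5, another inhibitory receptor, 0.766 and 0.674. None of the 5 general B-cell genes was past 1.5-fold, with medians of 0.12 and -0.01. Of the 4 tested antibody-secreting genes 1, Jchain, was lower in IGHV1 in WT. In KO Jchain was higher, and Prdm1, a regulator of plasma cells, was lower with 0.648. Without IGHV11-2 and IGHV12-3 Jchain had 0.736 in WT and Prdm1 0.944 in KO, so that both lower calls were lost. Stmn1, the 1 tested gene of dividing cells, did not pass 1.5-fold. Markers of other lineages were present in both sums. The 5 T-cell genes summed to 189 CPM in IGHV1 and 194 in the other families in WT and 257 and 237 in KO, and the 3 NK genes to 62.2 and 67.9 and to 123 and 118. The 4 macrophage genes summed to 427 and 327 CPM in WT and 520 and 469 in KO, most of it Lyz2. Lyz2, a lysozyme of myeloid cells, had 401 against 302 CPM in WT, a ratio of 1.33 (1.28 to 1.37) that rose to 1.59 without IGHV11-2 and IGHV12-3, and 1.11 in KO. The part of these markers in the list results was not tested. No defining marker of these lists was at 0.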

How the data were processed

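The deposited matrices hold raw UMI counts of genes by barcode. For each contig the deposited BCR tables give read counts, UMI counts, gene names and the CDR3. Cell Ranger 6.1.2 is the version per the file headers. Per the submitters' processing notes it was 6.0.1, used with Seurat 4.3.0 and mm39. For the V(D)J reference, the version is not given in the sources used. Every deposited contig was marked productive.

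The heavy and the light contig with most UMIs were kept per barcode. Matching expression barcodes needed at least 200 genes and under 10% mitochondrial UMIs. No doublet caller was run. Barcodes with exactly 1 heavy contig were analysed as an alternative, since doublets can hold 2. Fcer2a and Zbtb32 were counted after thinning each barcode to 2000 UMIs without replacement. Shares have exact Clopper-Pearson intervals, ratios of shares log-normal intervals and ratios of summed counts exact conditional binomial intervals. V genes were compared from 20 clones and genes from 10 CPM, with a threshold of 1.5-fold. Junctions were matched to the V, D and J sequences of GENCODE M21 (GRCm38) by gene name, with no coordinates used, since the build differs from mm39. The parser and the count ratio were tested on simulated data. The V reference was the most common contig sequence where 10 or more clones carried it. Python 3.11.15 with scipy 1.17.1 was used.

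The genes named are the 12 most used members and the 4 with the highest and the 4 with the lowest ratio. Other members that the text names were chosen after their values were seen. Also named are the 6 largest clones per library, the 6 largest of those found in both, the 8 most frequent light V genes and the genes of the fixed lists. The members and lists were chosen with earlier results of these data known.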

Additional observations from a re-analysis of the deposited data

Results flagged for a closer look

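The share of barcodes in clones of 4 or more moved in opposite directions in 2 sets of V genes. It had a KO to WT ratio of 0.792 in IGHV1 (0.649 to 0.966) and 1.29 in the other V genes (1.09 to 1.52). The difference between these ratios was not tested, and without IGHV1-55 the IGHV1 shares were 4.39% in WT and 3.85% in KO. As a share of clones the directions were not opposite. Clones of 4 or more were 1.01% in WT and 1.12% in KO in IGHV1, with overlapping intervals, and 1.14% and 2.31% in the other V genes. KO clone sizes may also count a cell more than once.

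Jchain, the joining chain of secreted IgM and IgA, had an IGHV1 to other-family ratio of 0.104 in WT and 3.50 in KO. In WT, 3 barcodes of the other families held 1315 of 1531 Jchain UMIs there, and in KO 3 IGHV1 barcodes held 1373 of 1643, so that single barcodes carry both values. Stmn1, a gene of dividing cells, had 0.799 in WT and 1.42 in KO. Cd79a had 1.08 and 0.991, and Cd79b 1.02 and 0.945, both small. The differences between the libraries in these 4 genes were not tested.

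Second heavy contigs, which enter no result above, carried IGHV1 genes more often than first ones, in 59.3% of 558 in WT and 57.7% of 1685 in KO. They had medians of 20 and 11 UMIs. The contig with most UMIs ranks first, and chosen IGHV1 contigs had fewer UMIs than those of all other V genes. Their medians were 20 against 42 in WT and 14 against 25 in KO. The part of this ranking in the result was not tested.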

How the results depend on the processing

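No paired analysis was possible because each genotype has 1 library of each kind. Without IGHV11-2 and IGHV12-3 the IGHV1 barcode shares were 49.1% in WT and 48.4% in KO with a reversed ratio of 0.987, the clone shares were 49.8% and 50.05%, and 10 genes were higher and 2 lower than in the other families in WT and 9 and 3 in KO. Counted once per heavy and light CDR3 pair, the IGHV1 shares were 45.7% and 47.2% with a ratio of 1.03. With the light-chain CDR3 in the clone, the KO clone share was 47.2%, and clones of 2 or more held 13.8% and 56.5% of the barcodes. Counting barcodes in place of clones put 5 members past 1.5-fold, without IGHV1-12 at 1.32, and with a minimum of 50 clones 2 of 25 members were. Thinned to 1000 UMIs, Fcer2a was found in 15.2% and 15.6% with a reversed ratio of 1.03, and Zbtb32 in 8.45% and 6.50% with a ratio of 0.769. Without thinning, Fcer2a was found in 39.4% and 30.6%, Zbtb32 in 35.9% and 21.5% with a ratio of 0.599, and the Fcer2a ratios of IGHV1 to the other V genes were 1.27 in WT and 1.30 in KO. With 1 barcode per clone, Fcer2a was 22.7% and Zbtb32 12.9% in KO, and 15 genes were higher and 20 lower in WT and 9 and 11 in KO. At 50 CPM these were 14 and 13 in WT and 6 and 4 in KO. With exactly 1 heavy contig, Fcer2a was 19.3% in KO, Zbtb32 14.4% in WT, and 88 genes were higher in WT. With at least 3 UMIs per heavy contig, IGHD was 5.03% in KO. With 5 or more Ighv UMIs, the V genes matched in 98.0% and 95.9%. The alternatives with 8 bases of D match, which gave 6.98% of WT junctions without N bases, without IGHV1-55, which gave 4.39% and 3.85% in clones of 4 or more, and of the ratios to the other V genes were chosen after seeing the data. The cause of these changes was not tested, apart from the fewer genes or barcodes that an alternative leaves by construction. The other 96 alternative values of the main results stayed within the intervals or within 1.5 times the counts. Among them, 2 KO to WT ratios whose intervals include 1 crossed it, that of Zbtb32 with exactly 1 heavy contig, at 1.03, and that of junctions without N bases with 8 bases of D match, at 1.03. Expression depth was lower in KO, and the thinned shares leave out 1442 IGHV1 barcodes there and 78 in WT.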
